A study of Mus musculus with 2 samples.

Results

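The 62 genes described here encode chromatin remodellers and chromatin-modifying enzymes of the mouse. They were chosen by name: the CHD remodellers, the Smarc and Arid subunits of SWI/SNF-type and ISWI complexes, histone deacetylases (HDACs) and sirtuins, DNA methyltransferases and Tet enzymes, lysine acetyltransferases, the core of Polycomb repressive complex 2 (PRC2), and the demethylases Kdm1a and Kdm6b. The array holds 141 probe sets that its annotation gives to exactly 1 of these genes, out of 45037 probe sets besides controls. Each gene takes the value of the probe set with the highest mean of both arrays, a rule that gives 18193 genes in all. Values are probe set intensities in array units. A difference is a log2 ratio of intensity + 5, knockout minus wild type.

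The study set 1 retina of a wild-type embryo beside 1 retina of a Sox11-/- littermate, both at embryonic day 18 and on the C57BL/6 background, to find transcripts that differ when the SoxC transcription factor Sox11 is missing. Each RNA was measured on 1 Affymetrix array. The design of the Sox11 allele, and the cells in which it acts, are not given in the labels. Since each genotype has a single array, the variation among embryos is unknown, no test was possible, and every difference below is one between 2 arrays.

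Chromatin remodellers are ATP-driven motors that slide, space or evict nucleosomes. Acetyltransferases add acetyl groups to histone tails and deacetylases remove them, PRC2 methylates histone H3 at a lysine linked to gene silencing, and Dnmt and Tet enzymes write and oxidise methyl groups on DNA. In the developing retina such enzymes act in progenitors and in newborn neurons, and BAF complexes, the mammalian SWI/SNF remodellers, exchange subunits as progenitors become neurons.

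Both arrays carried neural retina signal. Of the 4 retina markers measured (Crx, Pax6, Six3 and Rax), the log2 ratios ran from -0.26 to 0.04. Of 6 Sox11 probe sets, 5 were lower on the knockout array, with log2 ratios from -3.64 to -0.18, and 1 was higher, at 1.08. Other lists differed between the arrays: all 5 rod genes measured were lower in the knockout (summed intensity 946.1 on the wild-type and 358.6 on the knockout array), all 8 S phase genes were lower (12897 and 10497), all 4 mitosis genes were lower (5771.2 and 4917.4), all 6 ganglion cell genes were higher (4482.8 and 5077.4), all 7 macrophage genes were higher (282.2 and 602.4) and all 7 periocular mesenchyme genes were higher (69.3 and 647.4). Lens genes were higher in 5 of 7 (339.2 and 538.9), pigment epithelium genes in 6 of 6 (228.7 and 374.1), and endothelial genes in 3 of 5 (830.8 and 635.6). These counts include genes below the low-value filter used further on. Of the endothelial genes 2 passed it, Kdr at -0.56 and Cldn5 at 0.14. None of these markers was at 0 on both arrays. The wild-type array carried Y-linked signal, with Eif2s3y at 214.0 against 4.7. The knockout array carried Xist, at 922.7 against 12.3, so the sex of the embryos and the genotype cannot be told apart here. In RNA of a whole retina, fewer cells of a type and less RNA per cell cannot be told apart either. The part of these differences in the values below was not tested.

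The chromatin genes were nearly level between the genotypes. Of the 62 genes, 61 reached an intensity of 18.6, the pooled median of both arrays used as low-value filter, and all 61 reached it on both arrays. The exception was Tet3, at 10.7 and 9.8. No chromatin gene was at least 1.5-fold higher in the knockout, where 3.81% of the 11553 genes past the filter were. A single one, Kdm6b, was at least 1.5-fold lower, where 2.17% of all genes were. Most members lie well above the filter, where ratios spread less: among the 6877 genes with a mean intensity of 109.4 or more, 1.25% were 1.5-fold higher and 0.902% lower. None of the 62 was 2-fold apart, where 1.37% of all genes past the filter were. The median log2 ratio of the 61 genes was -0.03, beside -0.01 over all genes past the filter. Of all 62, 26 had a positive ratio, 35 a negative one, and Chd3 read 111.9 on both arrays. The positive share was 41.9%, beside 42.5% of the genes at 109.4 or more and 47.7% of all genes past the filter. The counts of higher and lower genes by family below are to be read beside these shares.

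**Figure D1:**
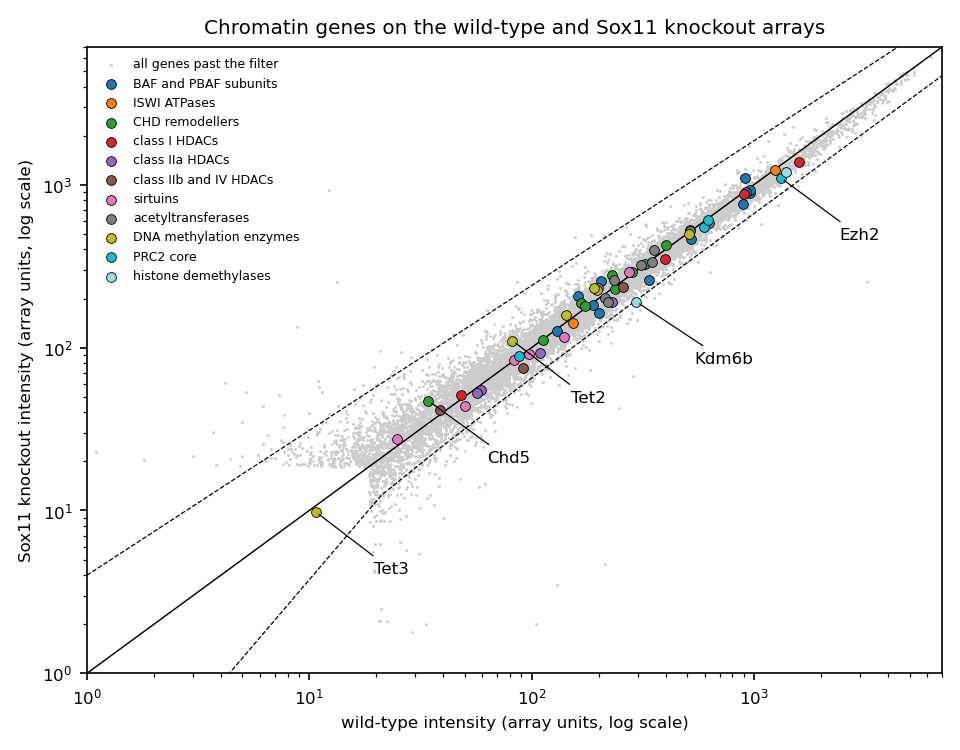
Intensity of each chromatin gene on the wild-type array (x axis) and the Sox11 knockout array (y axis), in array units on log scales, coloured by role; grey points are the 11553 genes past the low-value filter, the solid line marks equal intensity and the dashed lines mark a 1.5-fold difference of intensity + 5. Of the 62 coloured points, Kdm6b (295.0 and 191.5) lies beyond a dashed line and the others lie between both.

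The width of the spread was also like that of other well-measured genes. Log2 ratios of the 61 genes had quartiles of -0.12 and 0.09, beside -0.15 and 0.09 for genes with a mean intensity of 109.4 or more and -0.16 and 0.15 for all genes past the filter. Ratios within 0.25 of 0 were found for 48 of the 61 genes (78.7%), for 80.9% of the genes at 109.4 or more and for 71.2% of all genes past the filter. These shares describe the 2 arrays and carry no test.

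**Figure D2:**
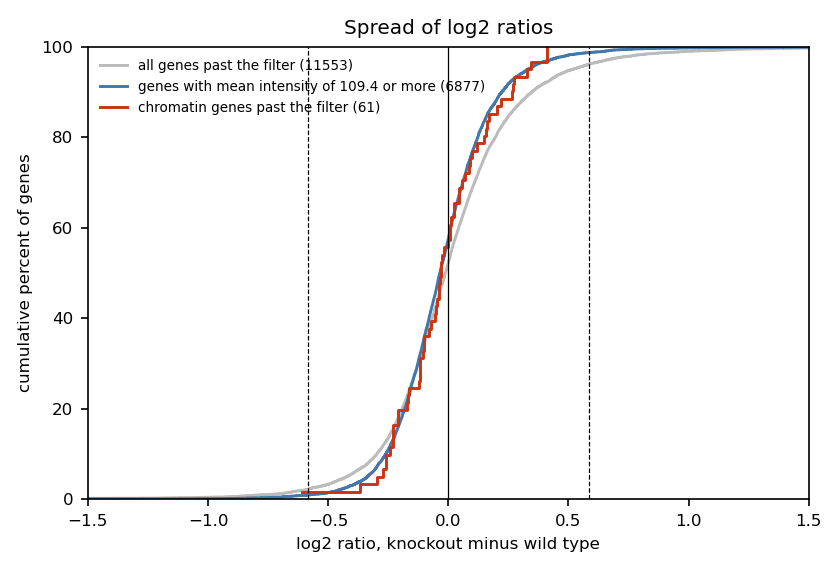
Cumulative percent of genes (y axis) against the log2 ratio, knockout minus wild type (x axis), for 61 chromatin genes, 6877 genes with a mean intensity of 109.4 or more, and all 11553 genes past the filter; dashed lines mark 1.5-fold. The line of the chromatin genes follows that of the genes at 109.4 or more, with medians of -0.03 and -0.04.

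BAF and PBAF complexes, the SWI/SNF-type remodellers, are built around the ATPase Smarca4 or its paralog Smarca2. Smarca4 read 955.0 on the wild-type array and 928.3 on the knockout array, a log2 ratio of -0.04. Smarca2 read 162.2 and 207.3, a ratio of 0.34, and both were short of 1.5-fold. The sign of Smarca4 turned with the scaling, at 0.020 after quantile normalization and 0.012 after loess, while Smarca2 was at 0.32 under each. The second Smarca4 probe set gave -0.40 and the second Smarca2 probe set 0.14, both without further normalization.

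Of the 12 BAF and PBAF subunits, 3 were higher in the knockout and 9 lower, with a median of -0.05. The other 2 positive ones were the alternative AT-rich DNA-binding subunits that define the BAF form of the complex. Arid1a read 912.8 and 1101.1, a log2 ratio of 0.27, with its other probe set at 0.37. Arid1b read 204.2 and 257.6, a ratio of 0.33. Arid2, which takes their place in PBAF, read 960.8 and 884.8, a ratio of -0.12. The scaffold and core subunits were level or lower. Smarcd2, an accessory subunit more often linked to blood cells, read 337.7 and 260.9, the lowest ratio of the group at -0.37. Its other probe set past the filter gave -0.05. Smarcc2, a scaffold subunit, read 200.3 and 161.9, a ratio of -0.30, while its paralog Smarcc1 read 923.5 and 904.9, a ratio of -0.03. Smarce1, a subunit with an HMG-type DNA-binding domain, had -0.23, and 0.01 by its other probe set past the filter. Smarcb1, a core subunit known as a tumour suppressor, read 522.7 and 466.6, a ratio of -0.16. Smarcd1 and Smarcd3, the paralogs of Smarcd2, were within 0.06 of level, at -0.05 each.

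The ISWI ATPases, which space nucleosomes evenly, were near level, with a median of -0.07 that ran from -0.10 to 0.01 over the settings run. Smarca5 read 1246.4 and 1229.9, a log2 ratio of -0.02, and its 4 probe sets past the filter ran from -0.02 to 0.17. Smarca1 read 153.6 and 141.1, a ratio of -0.12. Smarca1 lies on the X chromosome, as do Hdac6 and Hdac8.

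The CHD remodellers, which carry paired chromodomains, were level or higher as a family. Of 9 members, 7 had positive ratios, Chd3 was at 0 and Chd7 was at -0.05. The median was 0.06 and stayed between 0.03 and 0.16 over all settings run. Chd5, a neuronal member of the NuRD family, read 34.3 and 47.2, a log2 ratio of 0.41 from a single probe set. Chd2 read 230.2 and 278.0, a ratio of 0.27, and Chd1, which acts with transcription elongation, read 167.2 and 187.8, a ratio of 0.16. Chd4, the main ATPase of the NuRD deacetylase complex, read 322.6 and 325.3, a ratio of 0.01. Chd7, the gene mutated in CHARGE syndrome, read 237.2 and 228.2. Chd8, a gene linked to autism, read 282.8 and 291.7, a ratio of 0.04, and Chd6 and Chd9 had 0.06 and 0.10. No CHD gene reached 1.5-fold by its chosen probe set.

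Histone deacetylases of classes I, II and IV were lower in 9 of 11 genes, with a median of -0.12, and none was 1.5-fold apart. Among class I, the nuclear enzymes of the main corepressor complexes, Hdac1 read 905.1 and 882.2, a log2 ratio of -0.04. Its paralog Hdac2 read 1590.9 and 1374.3, a ratio of -0.21. Hdac3, a catalytic subunit of nuclear corepressor complexes, read 396.6 and 351.6, a ratio of -0.17. The X-linked Hdac8 was the one class I member above level, at 47.9 and 51.2, a ratio of 0.09. The class I median was -0.10, and 0.09 without probe sets that carry s, x or a in their suffix, over 3 genes, so its sign depends on them.

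All 4 class IIa HDACs, signal-dependent corepressors that shuttle between nucleus and cytoplasm, were lower by their chosen probe set, with a median of -0.17. Hdac5 read 228.8 and 190.2, a log2 ratio of -0.26, and Hdac9 read 109.5 and 92.6, a ratio of -0.23. Hdac4 read 59.3 and 54.8 and Hdac7 read 56.5 and 52.3, ratios of -0.10 each. When the median over all probe sets of a gene was used, the class IIa median was 0.09. That setting takes in a Hdac9 probe set below the filter on both arrays, at 6.9 and 16.7, a ratio of 0.87. By the median over probe sets past the filter, Hdac4, Hdac5, Hdac7 and Hdac9 had -0.02, -0.26, 0.21 and -0.23. The sign of this family thus depends on the choice of probe set and on counting that dim one. Of the other classes, Hdac11, the class IV enzyme, read 91.5 and 75, a ratio of -0.27. Hdac6, the X-linked cytoplasmic tubulin deacetylase, read 257.9 and 236.6, a ratio of -0.12, and Hdac10 read 38.9 and 41.1, a ratio of 0.07.

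Sirtuins, the NAD-dependent deacetylases, were mixed, with 4 of 7 higher and a median of 0.01. Sirt2, a mainly cytoplasmic enzyme, read 199.5 and 233.0, the highest log2 ratio of the family at 0.22. Sirt7, a nucleolar one, read 139.3 and 116.9, the lowest at -0.24. The nuclear Sirt1 read 273.5 and 291.5, a ratio of 0.09, and the chromatin-bound Sirt6 read 49.9 and 43.8, a ratio of -0.17. The mitochondrial Sirt3, Sirt4 and Sirt5 had 0.01, 0.12 and -0.07.

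Acetyltransferases were near level. All 9 lay within 0.25 of 0, as did all 7 sirtuins, and the acetyltransferase median was 0.01. Ep300 and its paralog Crebbp, the general coactivators, read 353.8 and 398.4 (log2 ratio 0.17) and 516.4 and 525.0 (0.02). Kat8, the enzyme that acetylates histone H4 as part of the MSL and NSL complexes, had the lowest ratio, -0.21, at 220.5 and 190.1. The SAGA and PCAF enzymes Kat2a and Kat2b had -0.08 and -0.10. Kat5, the catalytic subunit of the Tip60 complex, had 0.04, and Kat6a, Kat6b and Kat7 of the MYST family had 0.01, 0.16 and -0.04.

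Enzymes that write and oxidise DNA methylation had the highest median of all the groups, 0.20 over the 5 past the filter, and it was positive under every setting run (0.15 to 0.27). Tet2 read 81.9 and 110.4, a log2 ratio of 0.41, and its other probe set read 52.7 and 66.2, a ratio of 0.30. Tet1 read 190.0 and 230.7, a ratio of 0.27, and its other probe sets past the filter gave 0.40 and 0.31. All 5 probe sets of Tet1 and Tet2 past the filter were therefore higher in the knockout, and none was 1.5-fold higher. Tet3, below the filter on both arrays, gave -0.09. The de novo methyltransferases Dnmt3a, at 196.0 and 226.3, and Dnmt3b, at 143.1 and 159.0, had 0.20 and 0.15. The Dnmt3a value, which is also the group median, is the highest of its 5 probe sets, which ran from -0.31 to 0.20. Dnmt1, the maintenance enzyme that copies methylation at replication forks, read 507.8 and 498.9, a ratio of -0.03, and its other probe sets gave -0.32 and -0.22.

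PRC2 core genes were level or slightly lower, with a median of -0.08 that ran from -0.12 to 0.00 over the settings run. Ezh2, the methyltransferase of dividing cells, read 1317.7 and 1101.4, a log2 ratio of -0.26 from a single probe set, beside the S phase genes' median of -0.22. Its paralog Ezh1, which is more prominent in non-dividing cells, read 87.6 and 89.0, a ratio of 0.02. Eed, the subunit that reads the methyl mark, read 595.6 and 547.8, a ratio of -0.12. Suz12, a structural subunit, read 621.2 and 607.5, a ratio of -0.03.

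The largest difference of all members was that of a demethylase. Kdm6b removes methyl groups that PRC2 deposits, and its chosen probe set went from 295.0 on the wild-type array to 191.5 on the knockout array, 1.53-fold lower at a log2 ratio of -0.61. Its other probe sets did not share it: they read 82.0 and 83.3, a ratio of 0.02, and 19.4 and 24.5, a ratio of 0.27. A further probe set, which the annotation gives to Kdm6b and a second gene and which was not counted, read 550.2 and 645.2, a ratio of 0.23. The median over the 3 Kdm6b probe sets was 0.02, so the call of Kdm6b rests on 1 probe set. Kdm1a, the demethylase of the CoREST complex, read 1397.2 and 1189.3, a ratio of -0.23, with its other probe set at -0.11.

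**Figure D3:**
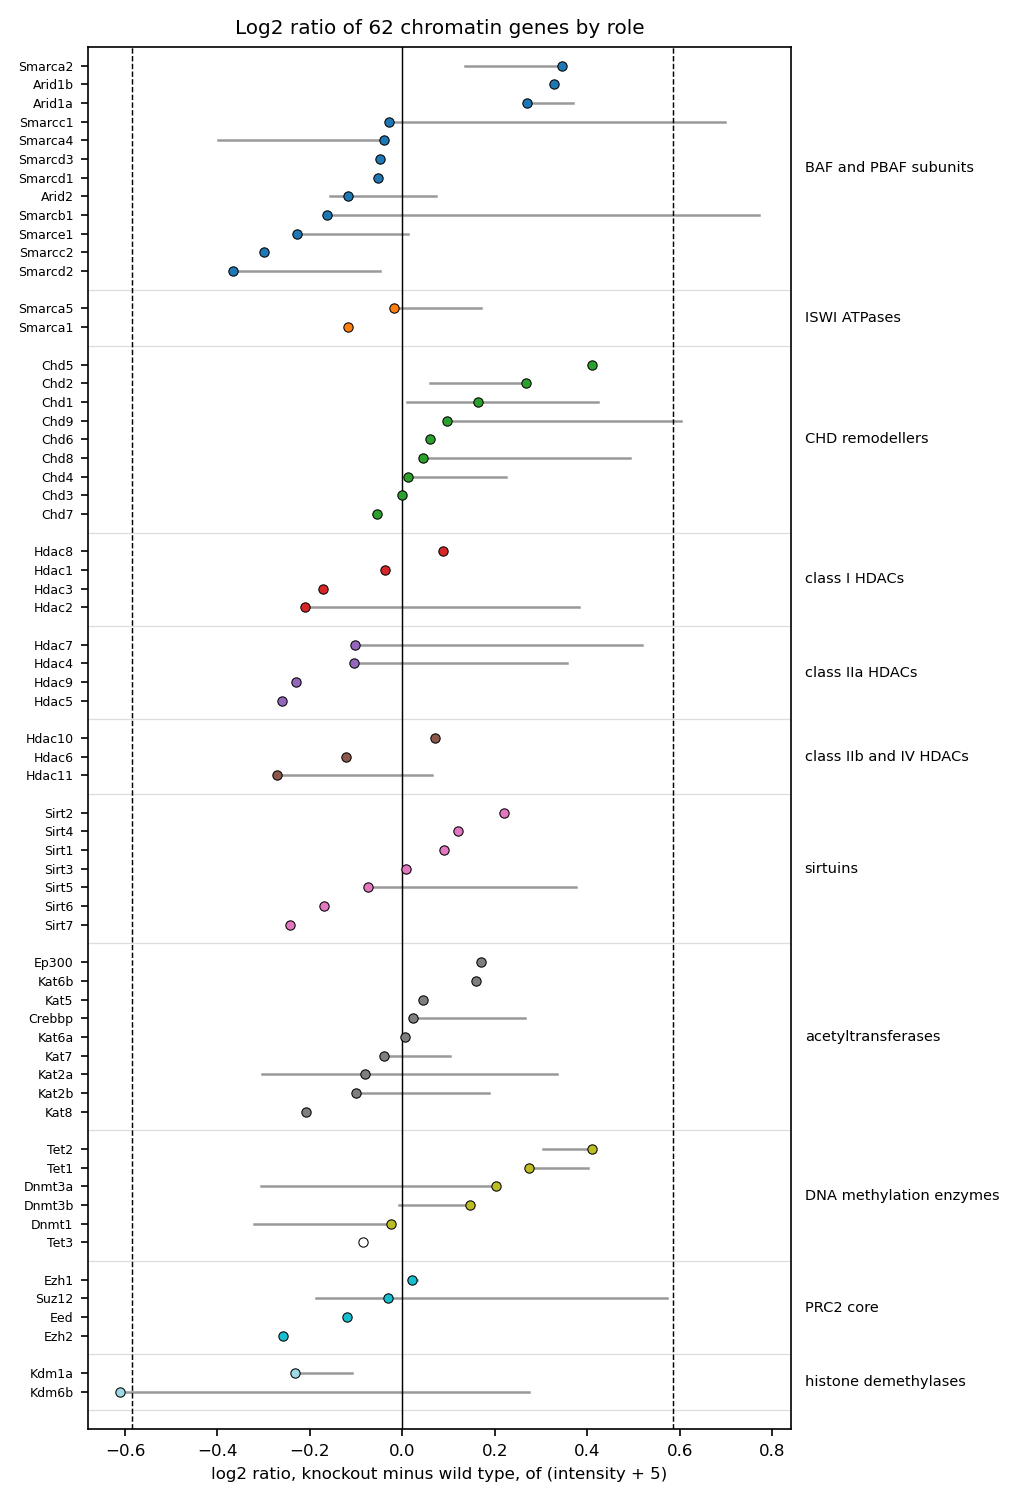
Log2 ratio, knockout minus wild type, of each of the 62 chromatin genes (x axis), sorted within role; the point is the chosen probe set, the grey bar spans all probe sets of the gene past the filter, the open point is Tet3 (below the filter) and dashed lines mark 1.5-fold. The points span -0.61 (Kdm6b) to 0.41 (Chd5), and the bars of Smarcb1 and Smarcc1 cross from below 0 to 0.77 and 0.70.

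Probe sets of a gene often differed by more than the genes did. Of the 62 genes, 21 had a single probe set, and Suz12 had 6. Of the 34 genes with several probe sets past the filter, 17 had all of them on the same side of 0 and 17 did not. The pooled SD between probe sets of a gene was 0.24 for the chromatin genes and 0.26 for all 5612 genes with several, which is wider than the distance from 0 of most ratios given above. The probe sets that were not chosen, which are dimmer by the rule, were higher in the knockout in 42 of 56 past the filter (75%), with a median of 0.12. Over all genes the same was true of 61.9% of 9398 such probe sets, with a median of 0.08.

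Of the 117 chromatin probe sets past the filter, 3 were at least 1.5-fold higher and 1 lower, beside 5.01% and 2.09% of all probe sets with 1 symbol. The lower one is that of Kdm6b. A second Smarcb1 probe set read 204.5 and 352.4, a log2 ratio of 0.77, against -0.16 for the chosen one. A Smarcc1 probe set read 91.1 and 150.8, a ratio of 0.70, where 2 others of that gene past the filter gave -0.03 and 0.07. The third was a Chd9 probe set at 32.3 and 51.6, a ratio of 0.60. The 6 Suz12 probe sets ran from -0.19 to 0.57, and the 5 of Dnmt3a from -0.31 to 0.20. The 3 Hdac2 probe sets read 1590.9 and 1374.3, 655.5 and 727.7, and 43.3 and 57.9, ratios of -0.21, 0.15 and 0.38. Opposite signs more than 0.3 apart were also found in Hdac4, Hdac7, Hdac11, Kat2a and Sirt5. On the control probe sets of Actb, the signal near the 3′ end over that near the 5′ end was 1.29 for the wild type and 1.21 for the knockout, and on those of Gapdh 0.82 on both. The dimmer controls differed more: it was 2.77 and 2.20 for Tfrc and 3.87 and 2.24 for Pcx, whose wild-type signals near the 5′ end, 18.1 and 17.3, lie below the filter. The part of this in the ratios was not tested.

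Partner genes that were not chosen by the naming rule were also close to level. Some belong to the same complexes, such as BAF and NuRD. Others come from another Polycomb complex, the H3K4 methyltransferase complexes, further demethylases and DNA methylation partners. Of these, Kdm6a is a demethylase and Gadd45a a DNA methylation partner. The 71 partner genes analysed here all passed the filter, 36 higher and 35 lower, with a median of 0.04. Kdm6a and Gadd45a were 1.5-fold higher (2.82%) and none was 1.5-fold lower, beside 3.81% and 2.17% of all genes past the filter.

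Subunits that mark the progenitor and the neuronal form of BAF did not separate into opposite directions. Of the progenitor subunits, Actl6a read 805.9 and 710.0 (log2 ratio -0.18), Ss18 777.1 and 692.8 (-0.16) and Phf10 382.0 and 420.9 (0.14). Of the neuronal ones, Actl6b read 79.6 and 72.6 (-0.12), Ss18l1 114.0 and 104.9 (-0.11), Dpf1 116.7 and 87.2 (-0.40) and Dpf3 22.9 and 35.3 (0.53). Both sets held positive and negative ratios. The positive neuronal one, Dpf3, lay near the filter of 18.6 on the wild-type array and had 1 probe set past it. Over all their probe sets, dim ones included, Ss18 ran from -0.16 to 0.53 and Dpf1 from -0.40 to 0.11. Among NuRD subunits, Mta1 was furthest from level, at 248.6 and 165.3, a ratio of -0.57. Of the 11 genes of the H3K4 methyltransferase complexes, 5 were higher and 6 lower, with a median of -0.01. They ran from Dpy30, a shared subunit, at -0.22 to the methyltransferase Kmt2d at 0.54. The DNA methylation partners Uhrf1, which brings Dnmt1 to replicated DNA, and Hells, a remodeller needed for DNA methylation, had 0.09 and -0.03. Gadd45a, a growth arrest gene also linked to DNA demethylation, read 277.7 and 499.3, 1.78-fold higher.

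**Figure D4:**
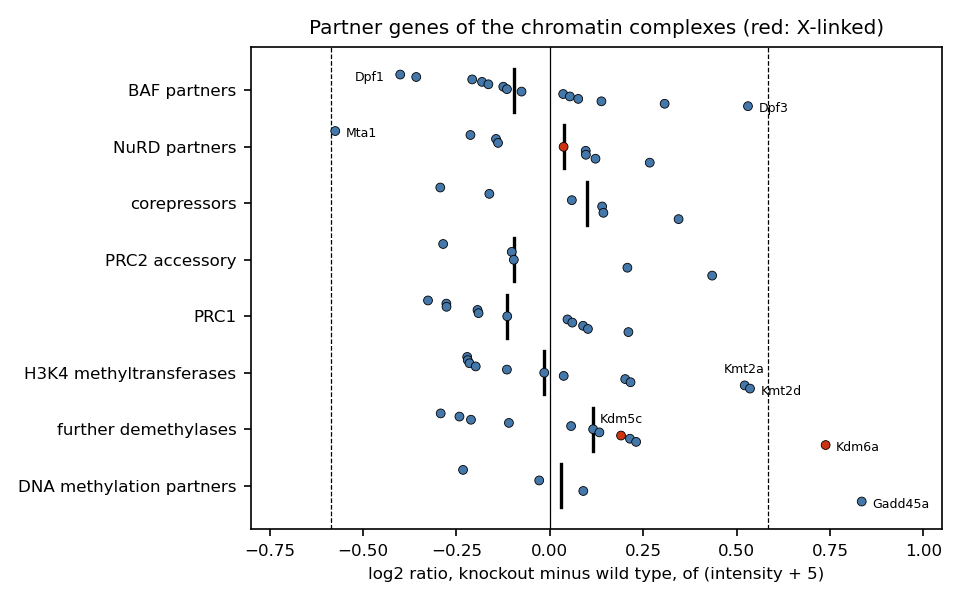
Log2 ratio, knockout minus wild type (x axis), of 71 partner genes by complex or enzyme group (y axis). Each point is a gene, red points are X-linked (Rbbp7, Kdm5c and Kdm6a), vertical bars are medians and dashed lines mark 1.5-fold. Kdm6a (0.74) and Gadd45a (0.84) lie beyond the upper dashed line and no gene lies beyond the lower one.

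Among the histone demethylase genes analysed here, the largest differences by chosen probe set were those of the sex-linked Kdm5d, Uty and Kdm6a. The autosomal Kdm6b came next, a place that rests on its chosen probe set, as given above. Kdm6a, the X-linked paralog of Kdm6b and a gene known to escape X inactivation, read 224.5 and 377.9, 1.67-fold higher, a log2 ratio of 0.74. Another Kdm6a probe set at or above the filter on both arrays gave 0.81. A further probe set, at 10.7 and 28.6, passed only through the knockout array, and the probe set below the filter on both read 3.5 and 0.9. Uty, the Y-linked homolog of Kdm6a, read 104.9 and 2.0. Kdm5c, another X-linked gene known to escape inactivation, read 188.9 and 216.3, a log2 ratio of 0.19 and short of 1.5-fold. The Kdm5c probe sets at or above the filter on both arrays ran from 0.19 to 0.80. A Kdm5c probe set at 8.7 and 24.8 passed only through the knockout array. Kdm5d, the Y-linked homolog of Kdm5c, read 130.4 and 3.5. These values move with Xist and the Y-linked genes, and genotype and sex cannot be told apart in them. The X-linked members Smarca1, Hdac6 and Hdac8, with -0.12, -0.12 and 0.09, lay near level, and the median of all 382 X-linked genes past the filter was 0.00. Without the X-linked members the median of the chromatin genes was -0.03.

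The promoters of most of these genes are rich in CG dinucleotides. RefSeq promoter windows (assembly GRCm38.p6, from 250 bases before to 50 after a start) were found for 51 of the 62 genes, in 69 windows. They held a median of 23 CG dinucleotides, with a range of 0 to 57, beside a median of 7 over all 32851 windows of that table. Above 7 were 59 of the 69 windows, while Hdac8, Hdac9 and Smarcd2 had no window above it. The Sox core motif AACAAT or its reverse complement ATTGTT, searched on both strands, was found in 6 of the 69 windows (8.70%), beside 10.7% of all windows. The Sirt6 windows overlap and share the same site. Counted by gene, the motif was found in 7.84% of the 51 members, beside 12.2% of all genes of that table. The members holding it were Hdac9, Kat2b, Kat7 and Sirt6, whose chosen probe sets had log2 ratios of -0.23, -0.10, -0.04 and -0.17. A match is a description of letters, and nothing is drawn from it about binding. To show what such promoters look like, the 250 bases upstream of a start are printed for the 2 BAF subunits whose probe sets past the filter differed most, with CG in capitals, and a stretch upstream of Kat7 with the motif in capitals. The Smarcb1 window is chr10:75921615-75921864 on the minus strand with 21 CG, the Smarcc1 window is chr9:110131774-110132023 on the plus strand with 21 CG, and the Kat7 stretch is chr11:95310373-95310478 on the minus strand.
Smarcb1: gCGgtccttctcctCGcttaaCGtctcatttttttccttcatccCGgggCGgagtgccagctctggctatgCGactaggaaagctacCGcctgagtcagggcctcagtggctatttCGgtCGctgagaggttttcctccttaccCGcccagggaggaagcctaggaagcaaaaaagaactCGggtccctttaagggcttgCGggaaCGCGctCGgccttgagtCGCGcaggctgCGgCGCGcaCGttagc
Smarcc1: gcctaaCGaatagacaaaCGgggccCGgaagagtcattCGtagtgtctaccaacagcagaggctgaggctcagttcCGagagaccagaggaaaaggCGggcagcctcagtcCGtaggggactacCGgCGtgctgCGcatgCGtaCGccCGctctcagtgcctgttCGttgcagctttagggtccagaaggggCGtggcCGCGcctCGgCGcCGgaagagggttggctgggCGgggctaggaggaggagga
Kat7: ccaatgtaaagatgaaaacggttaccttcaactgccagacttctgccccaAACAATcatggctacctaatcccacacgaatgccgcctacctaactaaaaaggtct
Neither the Smarcb1 nor the Smarcc1 stretch overlaps an annotated gene in that assembly, and the Kat7 stretch overlaps the neighbouring Gm11520. The 2 BAF promoters thus hold 21 CG each in 250 bases, and the Kat7 stretch holds 3 in 106 bases.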

How the data were processed

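The authors deposited 1 intensity per probe set and array, on a linear scale. The software is not given in the sources used here. The values themselves showed a common scale: the mean trimmed by 2% per tail was 100.0 on both arrays. The extracts were amplified before labelling, per the labels' protocols.

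The 64 control probe sets were left out. No further normalization was applied. Ratios were taken on log2(intensity + 5), which understates the change of low genes. Low values were filtered at 18.6. Names came from GEO's platform annotation: 34945 probe sets had 1 symbol, 932 several and 9160 none. Intensities of different probe sets are not comparable with each other. With 1 array per genotype no test was run; a 1.5-fold difference was counted. The procedure was tested on simulated data. Python 3.11.15, pandas 2.3.3 and statsmodels 0.14.6 were used.

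Members, lists and thresholds were chosen with earlier results of these data known. Genes named in full are those 1.5-fold apart, the highest and lowest of each role, X-linked members, paralog pairs, core subunits and genes whose probe sets differ in sign.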

Additional observations from a re-analysis of the deposited data

How the results depend on the processing

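The median of the chromatin genes stayed between -0.062 and 0.044 over all settings, and its sign followed the choice of probe set. It was 0.011 with the median over all probe sets of a gene. It was 0.044 with the median over those past the filter, a setting added after the data were seen. The median over all genes past the filter turned positive likewise, at 0.014 and 0.013 under these settings. With the median over all probe sets of a gene, 1 gene, Chd9 (0.60), was 1.5-fold higher instead of 0. The class IIa HDAC median was 0.094 there. These values take in probe sets below the filter on both arrays, at 3.0 and 8.0 for Chd9 and at 6.9 and 16.7 for Hdac9. Under both settings of the median over probe sets, 0 were 1.5-fold lower. Kdm6b was then at 0.021 and the median of Kdm1a and Kdm6b was -0.075. With the pseudocount at the pooled median 0 genes were 1.5-fold lower, with Kdm6b at -0.58. After dropping probe sets whose suffix marks possible cross-matches (s, x or a), the class I HDAC median was 0.087, over 3 genes, with Hdac2 at 0.15. Centring on the median ratio, quantile normalization, loess, no pseudocount, no filter, a filter at 109.4, choosing the probe set by its mean log2 value, and leaving out X-linked members (added after the data were seen) kept both counts, and each group median within its tolerance, which is the SD between probe sets of a gene scaled to the number of genes. Of the single-gene values recomputed, 715 kept their side of 1.5-fold and stayed within that SD, and 14 moved by more. Another 2, both of Kdm6b, changed sign, 1 came past 1.5-fold (Chd9) and 1 fell short of it (Kdm6b). Part of the 715 was fixed in advance. Changing the filter or leaving out X-linked members cannot alter the ratio of a gene. The 21 members with a single probe set cannot move with the choice of probe set. With X-linked members or those suffixes left out, a single ISWI gene remained and gave no median. No paired analysis was possible because each genotype has 1 array. The number of arrays limits the precision of every value.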

Other observations

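Among the chromatin genes, the ratio went with the length of the gene, as it did more weakly over all genes. The pattern was noticed after the values were seen and carries no test. RefSeq gene spans (start to end, introns included) were available for all 61 genes past the filter, with a median of 39.5 kb. The 30 shorter genes had a median log2 ratio of -0.08, with 9 positive (30%), and the 31 genes at or above that span had a median of 0.02, with 17 positive (54.8%). Across these genes, Pearson's r between the log2 ratio and log10 span was 0.34 and Spearman's rho with the span was 0.37. Genes are not independent replicates, and all values come from the same 2 arrays. The same measures over 6867 genes with a mean intensity of 109.4 or more were 0.14 and 0.16, and the medians below and above 39.5 kb were -0.05 and 0.00, with 37.5% and 51.1% positive. Over 11518 genes past the filter the measures were 0.10 and 0.13, with 43.5% and 55.2% positive. The lean is therefore not particular to the chromatin genes. Only the chosen probe set of each gene entered.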
